A study of Mus musculus with 26 samples.

Results

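The genes described here code for the proteins of the cytosolic ribosome, measured in single cells of the fetal mouse ovary from embryonic day E11.5 to E18.5. They were chosen by symbol alone: every row of the count table whose symbol begins with Rpl or Rps and a digit, or is Rpsa, Rplp0, Rplp1 or Rplp2, without symbols holding -ps and without the Rps6k kinase genes. The rule took 44 of 16344 complete rows, and no measured value entered it. These are 19 genes of the small subunit (Rps), 23 genes of the large subunit (Rpl) and 2 genes of the stalk (Rplp0 and Rplp2). The rows read here hold members on chromosomes 1 to 7, 10 and X, 14 of them on chromosome 7, and ribosomal protein genes on other chromosomes were not analysed here.

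A ribosome is built from a small subunit, which reads the messenger RNA, and a large subunit, which joins the amino acids; each holds ribosomal RNA and a fixed set of proteins. The ribosomal stalk, made of Rplp0, Rplp1 and Rplp2, recruits the elongation factors. Messenger RNAs of ribosomal proteins begin with a stretch of pyrimidines (a terminal oligopyrimidine tract), through which mTOR signalling and Larp1 adjust their translation as a group. Female germ cells of the mouse first divide and then enter meiosis before birth, while the somatic cells around them form the supporting tissue of the ovary.

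All cells came from embryos carrying 2 transgenic reporters, Blimp1-mVenus (BV) and Stella-ECFP (SC), which mark germ cells. Gonads of several embryos were combined at each stage, digested with trypsin, sorted by fluorescence and picked by mouth pipette, and all groups used here share the reporters and the digestion. The 3 sort gates, given by the cell names after the reporters, hold 1302 BVSC cells, 529 Negative cells and 50 BV cells. Counts are unique molecular identifiers (UMIs) from a 3' end protocol (modified STRT-seq) in 1881 cells of 26 libraries, numbered here in the order of the series. Titles of libraries 1 to 6 begin with s03 and those of libraries 7 to 26 with s05, called the library series below. The labels do not say what this prefix stands for.

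Cells are not replicates, so UMIs were summed over the cells of 1 library, stage and gate into pools of at least 5 cells: 18 BVSC pools, 17 Negative pools and 3 BV pools. BVSC pools number 4 at E14.5 and 2 at each other stage. Negative pools number 3 at E11.5 and E14.5, 1 at E13.5 and 2 at the remaining stages. The BV pools, 1 at E11.5 and 2 at E14.5, entered no test. The labels do not say that libraries come from separate embryos, so p-values measure the spread between pools, which may be technical.

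Pools hold 700825 to 27498626 UMIs. The median cell of a pool had 137041 to 375308 UMIs in the BVSC gate and 89181 to 288506 in the Negative gate. Summed levels of 19 germ cell markers were 2561 to 6755 CPM (counts per 1000000 deposited UMIs) in BVSC pools and 25.3 to 1258 in Negative pools, the highest of these in library 17 at E15.5. Summed levels of the 11 gonadal somatic markers in the table were 14.8 to 254.3 CPM in BVSC pools and 1610 to 2824 in Negative pools. Both gates therefore carry the markers of their sort, and germ cell markers were detected in every Negative pool. The E11.5 BV pool, of 5 cells, had germ cell markers at 174.6 and immune cell markers at 3698 CPM, against 0.9 to 116.4 for immune markers in BVSC pools, and so goes against its gate.

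The members share several features of sequence and position that the rule did not use. In the GENCODE M21 annotation (GRCm38, the mm10 build), 19 of the 44 (43.2%) hold at least 1 small nucleolar RNA (snoRNA) gene within their bounds on the same strand, 35 snoRNA genes in all, against 115 of 11845 other protein-coding genes of the table (0.971%). Rpl13a (chr7:45125558-45128761, minus strand) holds Snord32a, Snord33, Snord34 and Snord35a, guides for ribosomal RNA modification. The last 300 bases of the transcripts of 27 members match another annotated gene at 97% identity or more over at least 100 bases, mostly processed pseudogenes, so that 3' reads could be split between copies. Rpl7a has 29 such copies, Rps12 16 and Rps4x 4, and their levels are uncertain to that extent; Rpl13a, Rps20, Rps21, Rpl12, Rpl22, Rplp0 and Rplp2 have none.

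Promoter sequences from RefSeq (GRCm38.p6) were matched for 36 of the 44 members. The other genes set beside them here are all others with such a sequence, whether or not they are in the count table. An unbroken run of at least 8 C or T bases on the gene's strand reached to within 30 bases of the annotated start in 24 of the 36 (66.7%) and in 8125 of 26989 other genes (30.1%). Counting only the bases of a run inside that distance, the numbers were 19 (52.8%) and 6946 (25.7%), and the median longest run was 9 bases in members (range 4 to 21) and 6 in the other genes. A gene with several promoter sequences was counted by the one with the longest run inside that distance. The windows below are those of the 4 members with the largest fall from E11.5 to E18.5 in BVSC pools and of the 3 with the largest difference in each direction between gates. Capitals mark the longest run that reaches into that distance, followed to its ends:

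Rpl13a: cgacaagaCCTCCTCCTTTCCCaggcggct

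Rps4x: agcgcgcgcgcagCCTCCgaccctaatttc

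Rplp2: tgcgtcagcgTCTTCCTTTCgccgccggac

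Rps13: tgagtggcgtcaCTTCCTgtgcggcttgat

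Rps12: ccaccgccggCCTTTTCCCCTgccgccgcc

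Rps21: accgaggacccgCCCTCCTgcccaatagtg

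Rpl22: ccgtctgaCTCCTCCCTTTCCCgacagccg

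Rpl41: ctgtctcgagcagCCCCgccctaagggacg

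Rps27: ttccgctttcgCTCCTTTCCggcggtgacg

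Rpl9: acgaaagacgTTCTCTCTTTgccccatcta

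Among these 10, the runs of Rpl13a and Rpl22 have 14 bases each, that of Rps12 11, those of Rplp2 and Rpl9 10 each and that of Rps27 9. The run of Rps4x has 5 bases and that of Rpl41 has 4. Counted from the annotated start, the run of Rpl22 begins at -39, that of Rpl41 at -33, that of Rps4x at 27 and that of Rpl9 at 29. The others begin between -5 and 12. The 3 genes higher in the BVSC gate have runs of 7 to 14 bases and the 3 lower ones have runs of 4 to 10. Counting only bases inside the distance used above, their longest runs have 5 to 11 and 4 to 9 bases. A link between run length and gate was not tested. The window of Rpl13a lies at chr7:45128722-45128751 and that of Rps4x at chrX:102189348-102189377, both on the minus strand. These are letters in an annotated window and no measurement of where transcription starts in these cells.

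Nearly every cell held transcripts of nearly every member. All 44 were detected in 1251 of 1302 BVSC cells (96.1%) and in 477 of 529 Negative cells (90.2%), and 39 members had a UMI in every one of the 1881 cells. Rpl13a, a large subunit protein also known from a complex that silences inflammatory transcripts, was detected least often, in 1781 cells (94.7%). The next was Rpl22l1, the paralogue of Rpl22, with 1878 cells (99.8%).

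The 44 genes together took 2.65% to 4.82% of the UMIs of a BVSC or Negative pool. In the BVSC gate the share was 3.69% and 3.74% at E11.5, 3.41% and 3.62% at E12.5, 3.67% and 3.71% at E13.5, and 3.35%, 3.54%, 3.85% and 4.25% at E14.5. It then was 2.75% and 3.18% at E15.5, 3.57% and 4.23% at E16.5, 3.09% and 3.68% at E17.5, and 2.65% and 3.16% at E18.5. The 2 lowest BVSC values are in library 6 at E18.5 and library 16 at E15.5, and the E15.5 and E18.5 pools lie below every pool of E11.5 to E13.5. At E14.5 the values of 3.35% and 3.54% are of library series s05 and those of 3.85% and 4.25% of series s03. At E11.5, E13.5 and E18.5 the BVSC pool of series s03 has the lower share.

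In the Negative gate the share was 4.27%, 4.47% and 4.52% at E11.5, 3.95% and 4.82% at E12.5, and 4.15% at E13.5. Later Negative pools had 2.99%, 3.51% and 4.16% at E14.5, 2.93% and 3.20% at E15.5, and 3.53% and 3.59% at E16.5. The last stages had 3.13% and 4.44% at E17.5 and 3.23% and 3.85% at E18.5. Of these values, 4.16% at E14.5 and 3.85% at E18.5 are of library series s03 and the others from E14.5 on of s05. At E11.5 the value of s05, 4.47%, lies between those of s03. The part of the library series in the share was not tested. At E11.5 to E13.5 every Negative pool lies above every BVSC pool of those stages, and from E14.5 on the gates overlap at every stage except E18.5. Over all stages the mean share was 3.51% ± 0.43 (SD, n = 18 pools) in the BVSC gate and 3.81% ± 0.594 (SD, n = 17 pools) in the Negative gate.

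**Figure D1:**
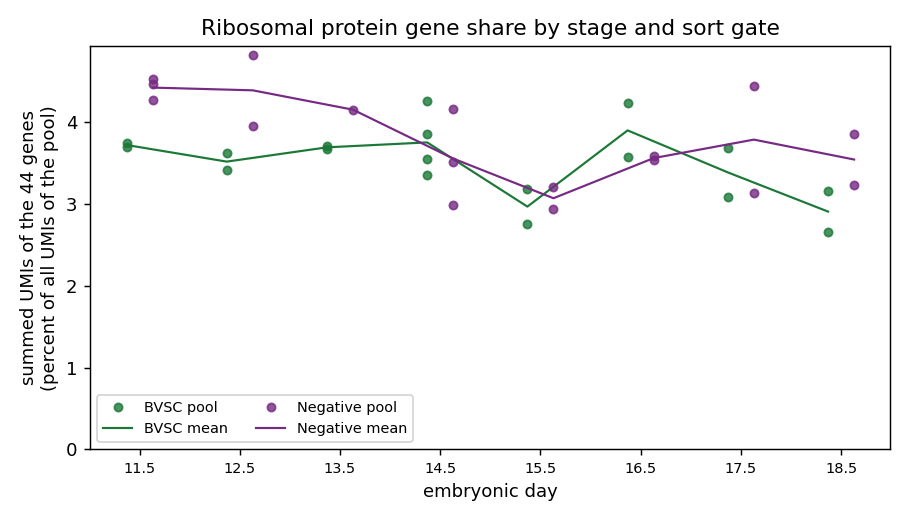
Summed UMIs of the 44 ribosomal protein genes as a percent of all deposited UMIs of a pool (vertical axis, from 0) against embryonic day (horizontal axis), green for BVSC and purple for Negative pools; points are pools and lines join the means of each stage. The Negative pools of E11.5 to E13.5 lie above the BVSC pools of the same stages, and both gates have low shares at E15.5.

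Inside a pool the share moved with the depth of the cells. Within each of the 35 BVSC and Negative pools, cells with more UMIs had a lower share of ribosomal protein UMIs, with a Spearman correlation across cells between -0.96 and -0.14 and a median of -0.88. At E14.5 the 3 Negative pools with 2.99%, 3.51% and 4.16% had 288506, 207570 and 170996 UMIs in their median cell. The 4 BVSC pools of that stage did not follow this order. With 3.35%, 3.54%, 3.85% and 4.25% they had 264284, 267882, 304409 and 221685 UMIs in their median cell. The 2 BVSC pools of E11.5, with 3.69% and 3.74%, had 277140 and 325927. Pools of the Negative gate are shallower than BVSC pools of the same stage at E11.5 to E13.5, where their share is higher, and the part of depth in the share was not tested.

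The comparison of the gates asks which ribosomal protein genes differ between the sorted germ cells and the other cells of the ovary, with stage as a covariate. Members moved little and in both directions under TMM scaling (trimmed mean of M-values, which scales pools by a trimmed mean of gene ratios). With it, 10 of the 44 were higher and 3 were lower in BVSC pools at an adjusted p under 0.05. The test was edgeR's quasi-likelihood test with Benjamini-Hochberg adjustment over 9804 genes, of which 38.5% were higher, 25.9% lower and 64.4% called in either direction. The median log2 fold change of the members was 0.00, and that of all genes tested was 0.33, so the median member lay below the median gene. Several other fits, given here and below, called more members lower than higher. In the 10 libraries that hold both gates, 1 member was higher (27.4% of genes) and 22 were lower (21.8%). With the library as a block in those libraries the numbers were 1 (28.3% of genes) and 24 (20%). The balance of 10 against 3 thus turned with the choice of these libraries, before the block was added. They hold no pool of E15.5 or E16.5.

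The small subunit gene Rps12 had the largest difference. Its level was 328.0 to 704.3 CPM with a median of 520.9 in BVSC pools, and 245.9 to 549.6 with a median of 419.6 in Negative pools. The ranges overlap, but within a stage every BVSC pool lies above every Negative pool at E11.5, E12.5, E16.5 and E17.5. The log2 fold change was 0.51 ± 0.095 (SE; edgeR adjusted p = 2.4e-05). Rps12 is the member that, in flies, takes part in the sensing of ribosomal protein gene dose.

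Rps21, also of the small subunit, had 627.4 to 1007 CPM with a median of 707.3 in BVSC pools and 374.4 to 829.02 with a median of 588.5 in Negative pools. Its log2 fold change was 0.40 ± 0.097 (SE; edgeR adjusted p = 0.00055). Rpl22, a large subunit protein that binds RNA outside the ribosome too, had 433.3 to 715.2 with a median of 588.8 in BVSC pools and 265.9 to 676.4 with a median of 457.3 in Negative pools. For Rpl22 the log2 fold change was 0.40 ± 0.096 (SE; edgeR adjusted p = 0.00052). Both genes overlap between the gates over all stages, with their lowest values in Negative pools.

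Rpl12, which sits at the base of the stalk, had medians of 593.2 and 516.7 CPM in BVSC and Negative pools and a log2 fold change of 0.32 ± 0.087 (SE; edgeR adjusted p = 0.0019). Rpl13a had medians of 210.8 in BVSC and 135.3 in Negative pools and a log2 fold change of 0.37 ± 0.164 (SE; edgeR adjusted p = 0.046). The range of Rpl13a in BVSC pools, 40.1 to 235.3, contains that of the Negative pools, 66.2 to 218.8, since its BVSC level fell late. The other members called higher were Rpl7a, Rpl35, Rplp2, Rps20 and Rps6, with log2 fold changes of 0.22 to 0.27.

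The 3 members lower in the BVSC gate were Rpl41, which codes for a very short basic protein, Rps27, a zinc finger protein of the small subunit, and Rpl9. Rpl41 had 766.6 to 1327 CPM with a median of 1087 in BVSC pools and 969.2 to 1949 with a median of 1420 in Negative pools. Rps27 had 940.3 to 1745 with a median of 1107 in BVSC pools and 1053 to 2208 with a median of 1613 in Negative pools. For both genes all Negative pools of E11.5 to E13.5 lie above all BVSC pools of those stages. Later the gates overlap for Rpl41 only at E14.5, and for Rps27 at every stage from E14.5 to E17.5. At E16.5 Rps27 had 1528 and 1745 CPM in BVSC pools and 1637 and 1575 in Negative pools. The log2 fold changes were -0.29 ± 0.09 (SE; edgeR adjusted p = 0.0051) for Rpl41, -0.27 ± 0.095 (SE; edgeR adjusted p = 0.013) for Rps27 and -0.20 ± 0.08 (SE; edgeR adjusted p = 0.028) for Rpl9.

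**Figure D2:**
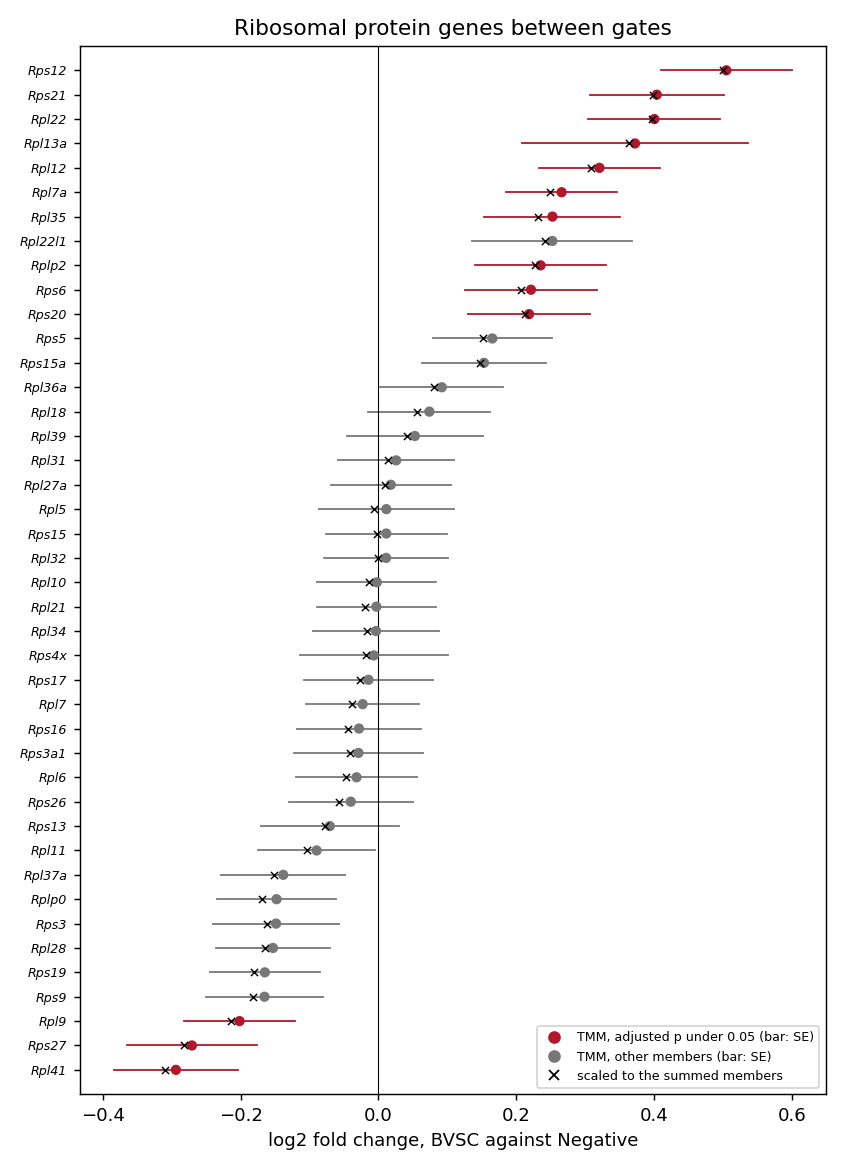
Log2 fold change of 42 of the genes (rows) between BVSC and Negative pools over all stages (horizontal axis); circles with bars are TMM-scaled estimates with their SE, red where the adjusted p is under 0.05, and crosses are estimates scaled to the summed members. Rps12, Rps21 and Rpl22 stand at the upper end and Rpl41, Rps27 and Rpl9 at the lower end under both scalings.

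The split between higher and lower members also depended on the scaling and on what entered the fit. By scaling it was 10 higher and 3 lower with TMM, 3 and 9 with upper-quartile factors, 4 and 16 with the deposited totals alone, and 4 and 10 with DESeq2. With TMM it was 3 and 11 without the filter on low counts and 1 and 27 with pools thinned to 700825 UMIs. Upper-quartile factors moved the median of all genes from 0.33 to 0.21 and that of the members from 0.00 to -0.12. Rps12 stayed higher and Rpl41 and Rps27 stayed lower, all past the threshold, in each of the 38 alternatives run, with largest adjusted p-values (edgeR or DESeq2) of 0.019, 0.013 and 0.031. Rpl9 kept its direction in all 38 and its call in 35 of them, while Rps21 and Rpl22 kept theirs in 35 and Rpl12 in 33. Rpl13a kept its call in 7 of 38, and Rpl7a, Rplp2, Rps20 and Rps6 reversed their sign in at least 1.

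Read against the summed members in place of all genes, which removes any common shift, 13 were higher (37.4% of genes on this scale) and 10 lower (26% of genes) in the BVSC gate. This scaling was chosen after seeing the data. Here and below the members set the scale themselves, so values on both sides of it are built in and the split is no result about them. Spread shared by the members is also removed, and the SE of Rpl41 was 0.039 against 0.09 under TMM. The genes lower on this scale were Rpl41, Rps27, Rpl9, Rps9, Rps19, Rplp0, Rpl28, Rps3, Rpl37a and Rpl11, with relative log2 fold changes of -0.31 for Rpl41 to -0.10 for Rpl11. Those higher ranged from 0.15 for Rps15a to 0.50 for Rps12. Rps19 is the gene most often mutated in Diamond-Blackfan anaemia, and Rpl11 is known for binding the p53 regulator Mdm2 when free of the ribosome.

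Counts of members called also moved when 1 library was left out. Members called higher were 6 without library 6, 5 without library 15, 6 without library 17, 5 without library 19, 6 without library 24 and 6 without library 26. Members called lower were 6 without library 5, 9 without 6, 5 without 13, 8 without 15, 8 without 17, 8 without 19, 7 without 24, 6 without 25 and 9 without 26. Summed dissociation response markers (Jun and Btg2 among the tested genes) were 38.1 to 460 CPM in BVSC and 750.2 to 2591 in Negative pools, and their part in these differences was not tested. With only the cells whose germ and somatic markers match their gate, 4 members were higher and 10 lower.

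The stage comparisons within the BVSC gate follow the germ cells from proliferation through meiotic prophase. Between E11.5 and E14.5 no member passed the threshold, and 3 had an unadjusted p under 0.05 (edgeR), while 8.35% of 10246 genes were higher and 5.58% lower, 13.9% in all. DESeq2 called 2 members lower in that comparison. The median member had a log2 fold change of -0.17, against 0.07 for all genes. The member nearest the threshold was the stalk gene Rplp0, with 889.5 and 1153 CPM at E11.5 and 660.5, 714.0, 754.6 and 789.0 at E14.5. Its 4 later values all lie below its 2 earlier ones, and its log2 fold change was -0.69 ± 0.23 (SE; edgeR adjusted p = 0.052). Without library 1 or without library 5, 1 member was called lower.

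Between E14.5 and E16.5, when germ cells pass through early meiotic prophase, 1 member rose and 2 fell, against 8.81% of genes higher and 7.51% lower, 16.3% in all. Rps20, a protein of the small subunit head, had 770.5, 804.7, 834.5 and 895.7 CPM at E14.5 and 1233 and 1500 at E16.5. Its E16.5 and E17.5 pools are higher than every earlier BVSC pool, and its log2 fold change from E14.5 to E16.5 was 0.68 ± 0.196 (SE; edgeR adjusted p = 0.022).

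Rpl13a, a large subunit protein, had 212.3, 227.1, 228.4 and 235.3 CPM at E14.5 and 126.2 and 142.9 at E16.5, with no overlap and a log2 fold change of -0.79 ± 0.241 (SE; edgeR adjusted p = 0.03). The median over all 44 members was -0.00.

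These calls rest on few pools. Without library 20 or without library 22, the 2 BVSC libraries of E16.5, no member was called, with adjusted p (edgeR) of 0.063 and 0.38 for Rps20 and of 0.13 and 0.2 for Rpl13a. The call of Rps20 was also lost without library 12 (adjusted p = 0.061) and library 14 (0.082), and that of Rpl13a without library 5 (0.066) and library 12 (0.051). Rps20 also lost its call with upper-quartile factors (0.058), and with libraries merged by deposited replicate Rps20 (0.061) and Rpl13a (0.097) both did. The sizes stayed between 0.44 and 0.79 for Rps20 and between -0.90 and -0.74 for Rpl13a. Read relative to the summed members, Rps20 and Rpl13a stayed past the threshold, and Rpl12, Rps3a1, Rpl18 and Rps3 were also lower, where 6.7% of genes were higher and 6.3% lower. Summed somatic markers were 20.8 to 36.7 CPM in the E14.5 BVSC pools and 254.3 and 151.6 in those of E16.5, the highest of that gate, and 3 of the 11 (Kitl, Wt1 and Dcn) were called higher. The dissociation markers Jun and Btg2 were both called higher, by 2.50 ± 0.513 and 2.07 ± 0.479 on the log2 scale (SE; edgeR adjusted p = 0.0025 and 0.0058), with summed levels of 43.7 to 103.5 and then 311.4 and 459.7 CPM. The part of both lists in these changes was not tested.

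Between E16.5 and E18.5 only Rpl13a was called among the members, against 0.361% of genes higher, 0.869% lower and 1.23% in either direction. Rpl13a fell from 126.2 and 142.9 to 40.1 and 58.0 CPM, a log2 fold change of -1.48 ± 0.276 (SE; edgeR adjusted p = 0.0085). The call was lost without library 20 (adjusted p = 0.12) and without library 26 (0.064), with log2 fold changes of -1.39 and -1.36. It was also lost on the scale of the summed members, with -1.01 ± 0.282 (SE; edgeR adjusted p = 0.056). Rps4x, the X-linked gene for a small subunit protein, had 743.6 and 841.8 at E16.5 and 390.2 and 450.2 at E18.5, a log2 fold change of -0.93 ± 0.246 that missed the threshold (SE; edgeR adjusted p = 0.074). The median member had a log2 fold change of -0.42 and the median gene -0.06, and 43 of the 44 members had a negative value under TMM.

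Markers of other cells moved in the same comparison. Summed somatic markers went from 254.3 and 151.6 CPM at E16.5 to 53.3 and 31.2 at E18.5, and 1 of the 11, Kitl, was called lower (log2 fold change -3.64 ± 0.779; SE; edgeR adjusted p = 0.023). Jun and Btg2 together went from 459.7 and 311.4 to 38.1 and 133.9, and neither was called. Erythroid markers were at 59.2 and 15.8 at E16.5 and at 20.3 in library 6 and 559.3 in library 26 at E18.5, and immune markers at 1.0 and 0.9 and then at 16.3 and 116.4 in the same order. The part of these lists in the fall of Rpl13a was not tested.

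**Figure D3:**
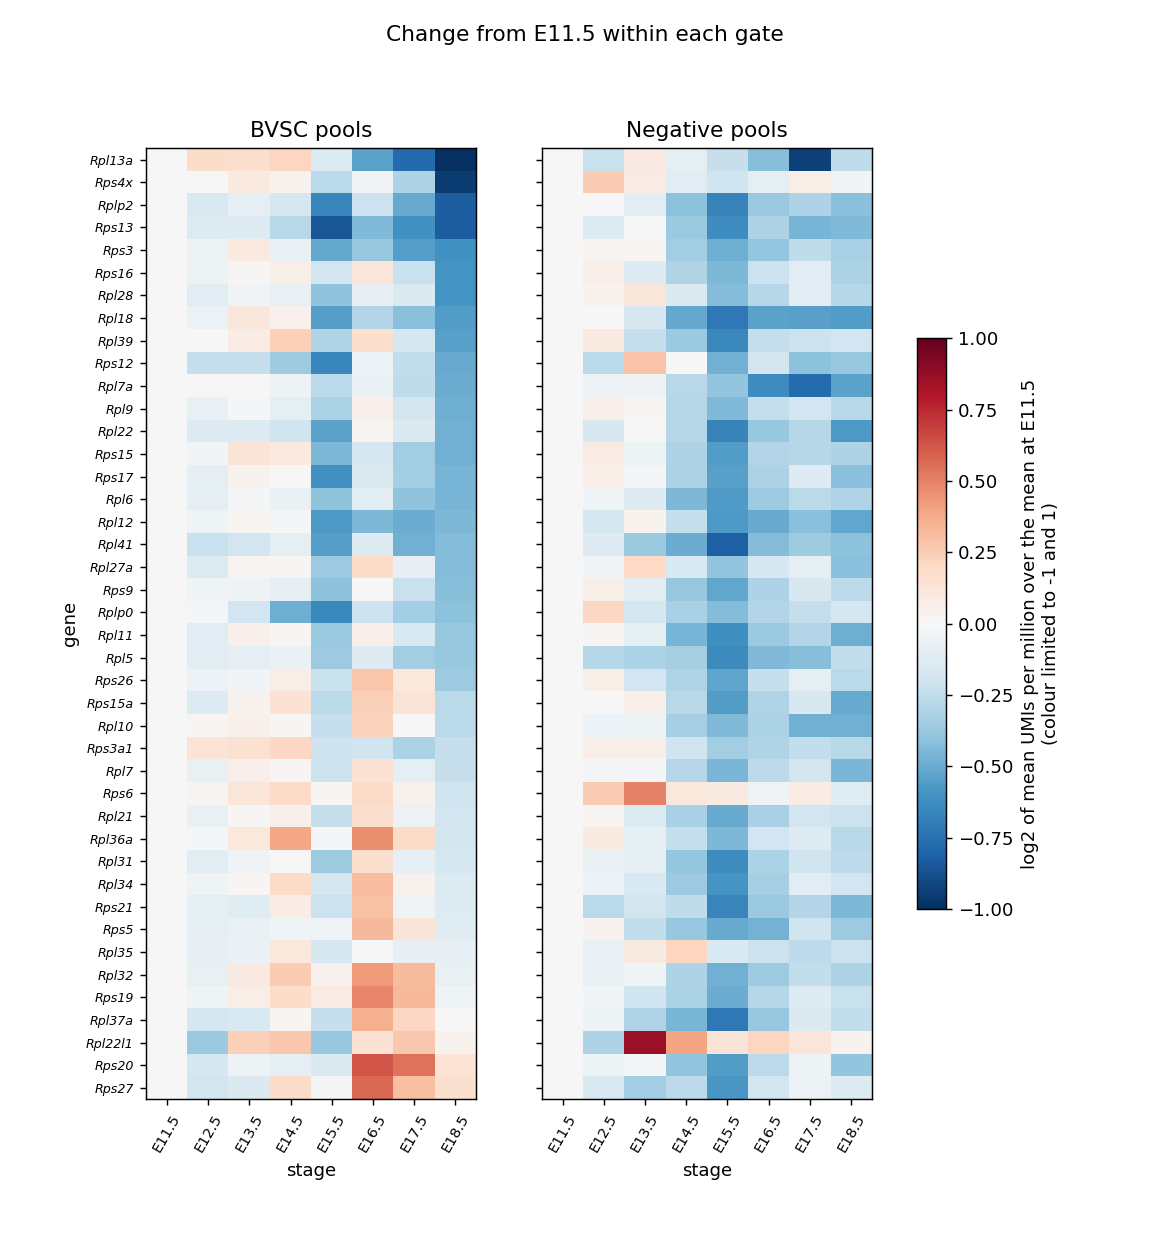
Log2 of the mean CPM at each stage over the mean at E11.5, for BVSC pools (left) and Negative pools (right), with 42 of the genes as rows ordered by their value at E18.5 in BVSC; colours are limited to -1 and 1. Rpl13a and Rps4x at the top are lowest in BVSC at E18.5, and Rps20 is high at E16.5 and E17.5.

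Over the whole span, from E11.5 to E18.5, 20 of the 44 members were lower in BVSC pools and none was higher, against 12.8% of genes lower and 15% higher, 27.8% in all. The median member had a log2 fold change of -0.64 and the median gene 0.15, and all 44 members had a negative value under TMM. With the deposited totals alone the median of all genes moved to 0.41 and that of the members to -0.42, and 3 members had a positive value.

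Rpl13a changed most, from 180.5 and 209.3 CPM at E11.5 to 40.1 and 58.0 at E18.5. The 2 values at E18.5 are the lowest of all BVSC and Negative pools of any stage. The log2 fold change was -2.25 ± 0.283 (SE; edgeR adjusted p = 7.2e-06). A total of 1376 UMIs of Rpl13a lie behind the E18.5 values.

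Rps4x followed, with 787.7 and 832.7 CPM at E11.5 and 390.2 and 450.2 at E18.5, which are its lowest values among BVSC and Negative pools. Its log2 fold change was -1.19 ± 0.247 (SE; edgeR adjusted p = 0.0011). The stalk gene Rplp2 went from 1157 and 1188 to 660.7 and 667.0, a log2 fold change of -1.05 ± 0.241 (SE; edgeR adjusted p = 0.0026). Rps13, a small subunit protein that binds early in assembly, went from 844.2 and 861.5 to 449.9 and 515.9, a log2 fold change of -1.05 ± 0.257 (SE; edgeR adjusted p = 0.0043). In none of these genes do the 2 stages overlap.

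Of the other members called lower, Rpl28 had a log2 fold change of -0.83 and Rpl27a, the smallest in size, -0.66. They include Rps3, which lines the entry channel of the messenger RNA, Rpl39 of the exit tunnel, and Rps12, Rpl22 and Rpl12, which were higher in the BVSC gate than in the Negative gate. At the other end, Rps20 had 869.1 and 902.5 at E11.5 and 940.2 and 1003 at E18.5, and Rps27 had 1093 and 1104 at E11.5 and 1038 and 1412 at E18.5. Their TMM log2 fold changes were -0.10 ± 0.231 and -0.05 ± 0.273 (SE; edgeR adjusted p = 0.79 and 0.92).

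The count of 20 depended on single libraries and on scaling. It was 11 without library 1, 6 without library 6, 4 without library 7 and 28 without library 26. It was 7 with upper-quartile factors and 10 with thinned pools. Rpl13a, Rps4x, Rplp2 and Rps13 were called in each of the 15 alternatives to this comparison, with a largest adjusted p of 0.038 (edgeR).

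Scaled to the summed members, 4 members were lower over this span (6.67% of genes on this scale) and 3 were higher (22.5% of genes). Lower were Rpl13a at -1.59, Rps4x at -0.57, Rps13 at -0.46 and Rplp2 at -0.45. Higher were Rps20 at 0.50 (edgeR adjusted p = 0.0062), Rps27 at 0.50 (0.0091) and Rpl37a at 0.35 (0.034). On this scale Rpl13a and the pair Rps20 and Rps27 stand at the ends of the range.

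**Figure D4:**
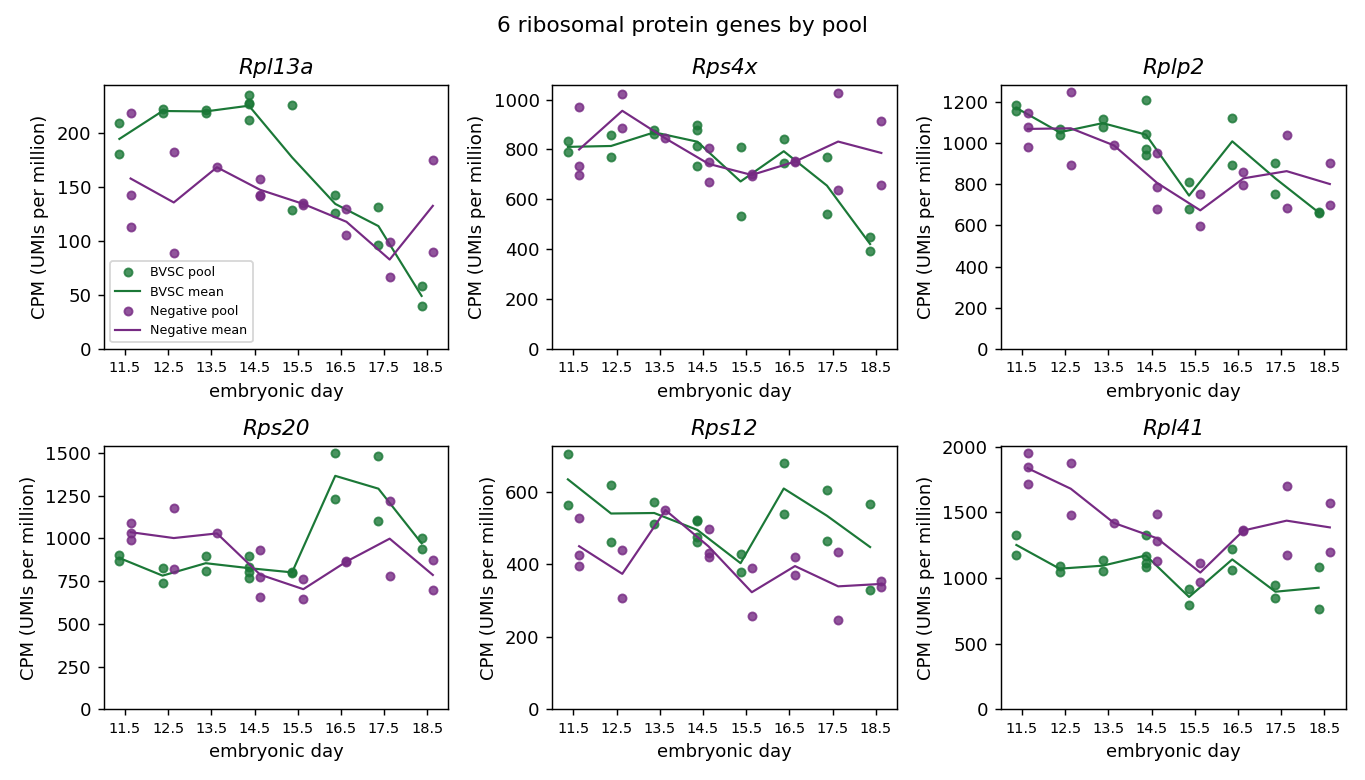
CPM (vertical axes, from 0) of Rpl13a, Rps4x, Rplp2, Rps20, Rps12 and Rpl41 in each pool against embryonic day, green for BVSC and purple for Negative pools; points are pools and lines join stage means. In BVSC pools Rpl13a declines after E14.5, Rplp2 is lower at E18.5 than at E11.5 and Rps20 is high at E16.5 and E17.5.

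In the Negative gate the same span gave no call. None of the 44 members passed the threshold, against 2.65% of 8955 genes higher, 1.41% lower and 4.05% in either direction, and the smallest adjusted p was 0.11 for Rpl18. At an unadjusted p under 0.05 (edgeR) 13 members were lower, and DESeq2 called 2 members lower. All 44 members had a negative log2 fold change under TMM, with a median of -0.37 against 0.04 for all genes. Rpl13a had 112.8, 142.7 and 218.8 CPM at E11.5 and 89.9 and 175.6 at E18.5, and Rps4x had 696.2, 733.4 and 969.0 and then 656.7 and 914.8. The stages overlap for both genes.

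The difference between the gates in the change from E11.5 to E18.5 was tested directly, without a term for the library. Libraries 1 and 7 at E11.5 and libraries 6 and 26 at E18.5 hold pools of both gates, and this sharing was not modelled. Members called were 2 lower and none higher, against 4.13% of 11291 genes lower, 2.48% higher and 6.61% in either direction. The BVSC change was more negative than the Negative change by a log2 difference of -1.95 ± 0.492 for Rpl13a (SE; edgeR adjusted p = 0.011) and -1.13 ± 0.349 for Rps4x (SE; edgeR adjusted p = 0.043). The median over the 44 members was -0.20 and that over all genes 0.00. Relative to the summed members the differences were -1.63 and -0.86 (edgeR adjusted p = 0.033 and 0.044), where 2.73% of genes were lower and 2.34% higher.

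Rpl13a lost its call without library 6 (log2 difference -1.69, edgeR adjusted p = 0.12) and with thinned pools (-1.49, 0.067). Rps4x lost its call without library 1 (0.12), library 2 (0.092), library 6 (0.24), library 7 (0.052) or library 26 (0.063), with log2 differences of -1.36 to -0.998. It also lost it with upper-quartile factors (-0.94, 0.15), in pools of at least 10 cells (-1.01, 0.092) and with thinned pools (-0.95, 0.076). Germ cell markers in the Negative gate summed to 262.5 to 365.2 CPM at E11.5 and 590.5 and 1087 at E18.5, and their part in the difference was not tested.

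**Figure D5:**
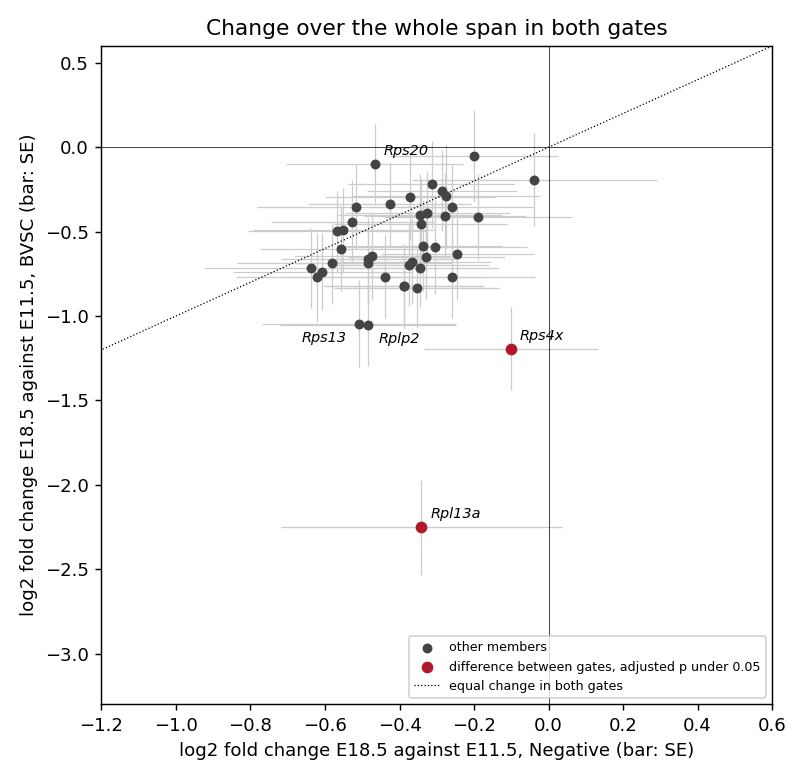
Log2 fold change from E11.5 to E18.5 in Negative pools (horizontal axis) and in BVSC pools (vertical axis) for 42 of the genes, with SE bars; the dotted line marks equal change and red points are genes whose difference between gates has an adjusted p under 0.05. Rpl13a and Rps4x stand below the other members, which lie between -1.05 and -0.05 in BVSC pools.

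The 4 X-linked members, Rpl10, Rps4x, Rpl36a and Rpl39, were not compared with each other by a test. None was called between the gates, with log2 fold changes of -0.00, -0.01, 0.09 and 0.05. Between E11.5 and E18.5 in BVSC pools all 4 had negative log2 fold changes. Rps4x and Rpl39 were called, at -1.19 and -0.77 ± 0.242 (edgeR adjusted p = 0.0011 and 0.022). Rpl10 and Rpl36a were not, at -0.49 ± 0.25 and -0.40 ± 0.242 (SE, edgeR adjusted p = 0.15 and 0.22). Rpl36a had 736.4 and 756.0 CPM at E11.5 and 593.6 and 722.7 at E18.5, with its highest BVSC pool at E16.5, 1135.

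Rpl22 and Rpl22l1 are paralogues whose products can take the same place in the large subunit, and 3' copies that match were found for Rpl22l1 but not for Rpl22. Rpl22l1 had 155.5 to 346.1 CPM with a median of 228.1 in BVSC pools and 119.8 to 338.1 with a median of 213.7 in Negative pools, and was not called between gates (log2 fold change 0.25 ± 0.116; SE; edgeR adjusted p = 0.056). From E11.5 to E18.5 in BVSC pools Rpl22 fell by 0.71 on the log2 scale (edgeR adjusted p = 0.028), from 619.8 and 677.8 to 457.2 and 472.1. Rpl22l1 had 206.4 and 238.5 and then 226.2 and 230.0, with a log2 fold change of -0.19 ± 0.274 (SE; edgeR adjusted p = 0.63). Of the stalk pair, Rplp2 had -1.05 ± 0.241 and Rplp0 -0.63 ± 0.273 over that span (SE, edgeR adjusted p = 0.0026 and 0.091). No test compared them.

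A further 4 lists set the members beside related genes. These lists were written with earlier results of these data known and are described by counts, to be read beside the 38.5% of all genes higher and 25.9% lower between gates, and the 15% higher and 12.8% lower from E11.5 to E18.5 in BVSC pools. Of 55 ribosome biogenesis genes 32 are in the table, and 29 were higher and 0 lower in BVSC than in Negative pools, with a median log2 fold change of 0.97 and Noc2l, Ltv1 and Sdad1 at 2.12, 2.01 and 1.74. From E11.5 to E18.5 in BVSC pools 18 of the 32 were lower, with a median of -1.04, and Gar1 (a snoRNA-protein complex), Rpf2 (assembly of the large subunit) and Nop10 at -1.89, -1.81 and -1.75. In the Negative gate 1 of the 32, Polr1a of the ribosomal RNA polymerase, was lower over that span.

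Of 38 mitochondrial ribosomal protein genes, 37 were tested. Between gates 28 of them were higher in BVSC pools and 0 lower, with a median of 0.49, where the 44 cytosolic members had 10, 3 and 0.00. From E11.5 to E18.5 in BVSC pools 10 of the 37 were lower, with a median of -0.34, Mrpl41, Mrps12 and Mrpl50 at -2.07, -1.55 and -1.37 being the largest. No test compared the lists with each other.

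Of a mixed list of 38 genes, translation factors and transcripts of the terminal oligopyrimidine type, 16 were tested. Of these, 9 were higher and 2 lower in BVSC pools (median 0.36), and 6 were lower from E11.5 to E18.5 (median -0.59). The genes of this list were not checked for such a tract. Eif4e, which binds the cap, was higher at 0.81, and Naca, a chaperone at the ribosome exit, lower at -0.30. Of 26 regulators of TOR and MYC 11 were tested, with 5 higher and 3 lower in BVSC pools (median 0.28), Mtor at 1.85 and Larp1b, a relative of Larp1, at 1.78 among the higher and the RNA-binding gene Tia1 at -1.36 lower. From E11.5 to E18.5 in BVSC pools 3 of the 11 rose and 2 fell. Larp1b rose by 4.34 ± 0.554 on the log2 scale (SE; edgeR adjusted p = 8.5e-06), Mxd1, an antagonist of MYC at their shared partner, by 2.24 ± 0.684 (SE; edgeR adjusted p = 0.018), and the mTOR inhibitor Tsc1 rose by 1.24 ± 0.308 (SE; edgeR adjusted p = 0.0048). The MYC family gene Mycl fell by 2.78 ± 0.784 (SE; edgeR adjusted p = 0.011) and Eif4ebp2, a repressor of Eif4e, fell by 1.52 ± 0.386 (SE; edgeR adjusted p = 0.0056).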

How the data were processed

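Deposited values are raw UMI counts per gene and cell, made by the authors with CASAVA 1.8, UMI-tools, STAR, featureCounts and Subread on the mm10 build, per the submitters' processing notes. The gene annotation, the strand setting and filters on cells: not given in the sources used here. Rows were read from a table that ends within a row, which was left out, and the complete rows cover 51.2% of the deposited total in the median cell. The cell table deposited by the authors gives the counts of total UMIs per cell, the library and the gate. Column names give stage and gate, and every cell has its own name, with 0 shared between libraries.

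Counts were summed into pools of at least 5 cells. Levels are CPM, counts per 1000000 deposited UMIs. Tests used edgeR 4.0.16 (glmQLFit, glmQLFTest, TMM, filterByExpr, library sizes from the deposited totals) with Benjamini-Hochberg adjustment over all genes tested and a threshold of 0.05 in R 4.3.3; DESeq2 1.42.0 was an alternative. The 7 comparisons each had one mean per stage, or stage as a covariate between gates, and the script was tested on simulated data. SE is the absolute log2 fold change over the square root of F. Copies were searched with blastn 2.17.0.

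The text names up to 5 called members per direction and comparison, the X-linked, paralogous and stalk members, and up to 3 called genes per direction of each other list; members named beyond that were chosen after their values were seen. Members, lists and named genes were chosen with earlier results of these data known. Results of 2 members, which stay in all counts, medians and sums, are not reported here.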

Additional observations from a re-analysis of the deposited data

Results flagged for a closer look

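The change from E11.5 to E18.5 differed between the gates, by a test of the difference itself, for 2 members. For Rpl13a the log2 difference was -1.95, with BVSC pools falling from 180.5 and 209.3 to 40.1 and 58.0 CPM while Negative pools had 112.8, 142.7 and 218.8 at E11.5 and 89.9 and 175.6 at E18.5. For Rps4x it was -1.13. Both calls were lost without library 6 (edgeR adjusted p = 0.12 and 0.24), whose pools are the larger in cells of the 2 BVSC pools at E18.5.

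The 4 BVSC pools of E14.5 were searched for a pool far from the other 3 in the 44 genes and their summed share, and none of the 45 values stood apart by Dixon's criterion, which chance exceeds in about 1 of 20 groups.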

How the results depend on the processing

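The alternatives, 11 planned and 2 chosen after seeing the data, moved counts of called members more than single genes; where no value shows it, the cause was not tested. Between gates, members called higher and lower were 3 and 9 with upper-quartile factors, 4 and 16 with deposited totals alone, 4 and 10 with DESeq2, 3 and 11 without the low-count filter, 1 and 27 with thinned pools, 4 and 10 with marker-matched cells, 7 and 7 with libraries merged by deposited replicate, 13 and 10 scaled to the summed members, and 1 and 22 in libraries holding both gates. With the library as a replicate block in those libraries they were 1 and 24. Of the 10 such libraries, 9 allow a correlation across genes of their pools' deviations. It was positive in all 9, at 0.120 to 0.215 in 8 and 0.066 in library 1. As it was not over 0.1 in each, the main fit has no term for the library. Pools of 1 library thus count as independent there, although their deviations go together. At a stage with 2 pools in each gate the deviations mirror each other, so both libraries must give the same value. This holds for libraries 8 and 9, 24 and 25, and 6 and 26, so the 9 correlations are not independent. The settings called 4433 to 6442 genes. From E11.5 to E14.5 in BVSC, genes called were 2204 with DESeq2 and 935 with merged libraries; members called lower were 2 with DESeq2 and 1 each with deposited totals, no filter, the library series covariate and member scaling, which also called 1 higher. From E14.5 to E16.5, merged libraries gave 794 genes and 0 and 0 members, upper-quartile factors 0 higher and 1 lower, and member scaling 6 lower. From E16.5 to E18.5, genes called were 574 with DESeq2, 500 without the filter and 240 with member scaling, with 2, 2 and 0 members lower; deposited totals gave 5 and thinned pools 2. From E11.5 to E18.5 in BVSC, members lower were 7 with upper-quartile factors, 10 thinned and 4 with member scaling, which called 3 higher. In the Negative gate DESeq2 called 725 genes and 2 members lower, and no filter 576 and 1. For the difference between gates DESeq2 called 1330 genes, and members lower were 1 with upper-quartile factors, 1 in pools of at least 10 cells and 0 thinned.

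Leaving out each library in turn gave 6179 to 6523 genes, 5 to 11 members higher and 2 to 9 lower between gates. It gave 527 to 1450 genes and 0 to 1 members lower from E11.5 to E14.5, 598 to 1403 genes with 0 to 1 higher and 0 to 2 lower from E14.5 to E16.5, and 15 to 445 genes with 0 to 1 lower from E16.5 to E18.5. From E11.5 to E18.5 it gave 1762 to 2609 genes and 4 to 28 members lower in BVSC, 177 to 410 genes and 0 members in Negative, and 390 to 687 genes and 0 to 1 members lower for the difference. Where 1 pool is left at a stage, it is assumed to vary like the others.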

Other observations

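The BV cells entered no comparison. Their 2 pools at E14.5, from libraries 4 and 5, had 4.07% and 3.89% of UMIs on the 44 genes and 200.2 and 235.4 CPM of Rpl13a, beside 212.3 to 235.3 in the BVSC pools of that stage. Their germ cell markers summed to 4747 and 5429 CPM, within or above the 4454 to 5015 of those BVSC pools. Rps27 was at 1396 and 1393 and Rpl41 at 1315 and 1195 in them. The pool of 5 BV cells at E11.5 had 4.40%, with Rps12 at 897.7 and Rpl41 at 1829 CPM. Its Rps12 value is above every BVSC and Negative pool, which reach 704.3 at most.

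Ribosomal protein levels at E15.5 were low in both gates at once. Rplp2 was at 681.5 and 809.6 CPM in BVSC pools and at 595.3 and 752.2 in Negative pools at that stage, where the E14.5 pools had 941.9 to 1209 and 682.1 to 951.1. Rps13 was at 405.0 and 537.6 in BVSC and 589.2 and 599.9 in Negative pools. No comparison of E15.5 with another stage was tested.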
